A study of Mus musculus with 17 samples.

Results

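Of the 17 mouse tumours sequenced here, 7 had more reads on Calca, the gene of calcitonin and calcitonin gene-related peptide, than on Pomc, and they are described here as the Calca-high tumours. They were chosen by these 2 counts alone, so the levels of Calca and Pomc in them are a description and not a result. The ratio of Calca to Pomc reads was between 1038 and 33246 in the 7 libraries and between 1.92e-05 and 0.00228 in the other 10 (the Pomc-high tumours), so no library lay near the limit of 1. The labels call each of the 17 a neuroendocrine pituitary tumour. The Calca-high tumours were 3 with engineered alleles of Rb1 and Trp53 (genotype Rb1/Trp53, tumours T1, T3 and T4) and 4 with alleles of Rb1, Trp53 and Crebbp (genotype Rb1/Trp53/Crebbp, tumours T1 to T4, called Crebbp tumours here). Both genotypes thus carry the Rb1 and Trp53 alleles, and they differ in the labels by Crebbp. The design addresses the genes that Crebbp regulates in such tumours. The sources used here do not give the kind of each allele, the promoter of any Cre, or the age, sex and number of the mice. Since separate mice are not stated, p-values measure only the spread between these samples.

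Crebbp encodes CBP, a lysine acetyltransferase that is recruited by CREB and many other transcription factors and acetylates histones at enhancers and promoters; Ep300 encodes its close relative p300. Rb1 restrains E2F factors and entry into S phase, and Trp53 encodes p53. Calcitonin is the hormone of the C cells of the thyroid, neuroendocrine cells that also express the transcription factor Nkx2-1 and the receptor tyrosine kinase Ret, the receptor of the GDNF family of ligands.

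The 3 genes that mark these tumours were present in all 7 libraries. Calca took 4.03% to 16.5% of the reads on genes. Nkx2-1 stood at 350.4, 347 and 346 CPM in the Rb1/Trp53 tumours T1, T3 and T4 and at 274, 226, 199.6 and 232 CPM in the Crebbp tumours T1 to T4. Ret stood at 336, 286 and 446 and at 153, 145, 178 and 133 CPM. CPM are read counts scaled to a common library size with edgeR's TMM factors, and values stand in this tumour order throughout. Genes that define the hormone cells of the anterior pituitary other than corticotrophs were nearly absent, with a summed level of 12 such genes between 0.0969 and 0.734 CPM, 3 of them at 0 in all 7 libraries. Pomc, the hormone gene of corticotrophs and melanotrophs, which the choice of libraries used, stood at 32.7, 5.63 and 6.61 CPM in the Rb1/Trp53 and at 69, 4.44, 3.79 and 4.27 CPM in the Crebbp tumours. Of 14 genes of those 2 cell types, Pomc included, 8 had enough reads to be tested. The tumours are named by Calca here.

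Several features of the libraries moved with the genotype. The Rb1/Trp53 libraries held 20361712 to 28140755 reads on genes and the Crebbp libraries 8328297 to 15490074, and reads outside annotated genes made up 15.9% to 16.5% and 18.5% to 21.7% of the tables. Reads from Y-linked genes were present in the 3 Rb1/Trp53 tumours and in Crebbp T1, and Xist, the RNA of the inactive X, stood at 3323, 3287 and 3343 CPM in Crebbp T2 to T4 against 3.34 to 10.2 CPM in the others. Marker genes of thyroid follicular cells, led by thyroglobulin (Tg), summed to 18620.0, 7805 and 2693 CPM in the Rb1/Trp53 tumours and to 1286, 1449, 1527 and 1615 CPM in the Crebbp tumours, and 10 of 13 tested were lower in the latter. Fat cell genes summed to 320.2, 251 and 60.4 and to 24.1, 41.4, 23.3 and 20.5 CPM (7 of 8 lower). Endothelial genes summed to 242, 232 and 218 and to 129.5, 168, 134 and 144 CPM (11 of 20 lower, 7 without Rb1/Trp53 T3). Macrophage genes summed to 389, 370.1 and 335 and to 136, 384, 287 and 166 CPM (4 of 20 lower, 9 without Crebbp T2, 1 without Rb1/Trp53 T3 and 2 without Rb1/Trp53 T1 or Crebbp T4). Fibroblast and pericyte genes summed to 1110.0, 1148 and 1331 and to 395, 988, 328 and 507 CPM (3 of 18 lower, 7 without Crebbp T2 and 1 without Rb1/Trp53 T3 or Crebbp T1, T3 or T4). Over all tested genes 17.1% were lower in the Crebbp tumours, so the macrophage and fibroblast counts (20% and 16.7%) were near that share. The macrophage sums of the genotypes also overlapped. Schwann and glial genes summed to 246, 231 and 229 and to 162, 184, 176 and 174 CPM (4 of 9 lower, 2 without Rb1/Trp53 T1). Lung epithelial genes summed to 528, 503 and 309 and to between 189.5 and 242 CPM, with 5 of 9 lower and 1 higher (0 without any 1 tumour other than Rb1/Trp53 T4). Muscle genes were uneven in both genotypes, at 1673, 17.8 and 172 and 290.2, 708, 6.3 and 17.3 CPM. Rb1/Trp53 T1 and T3 held the most thyroid and fat RNA and T4 the least of the 3. The part of sex, of depth and of these other cells in the gene results was not tested; in bulk samples, fewer cells of a type and less RNA per cell cannot be told apart.

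Among the other marker lists, 1 of 4 tested lymphocyte genes was lower (3 without Rb1/Trp53 T4 and 2 without Crebbp T3), and of 8 genes of melanotrophs and corticotrophs, which include granule genes, 2 were higher and 2 lower; 1 was higher without Rb1/Trp53 T1 or Crebbp T2 and 0 without Rb1/Trp53 T3, Crebbp T3 or Crebbp T4. Erythroid genes summed to 11.1 to 109 CPM in the Rb1/Trp53 and 7.93 to 26.7 CPM in the Crebbp tumours, neutrophil genes to 4.07 to 8.55 and 4.2 to 5.78 CPM, and parathyroid genes to 183 to 448 and 163 to 279.7 CPM, with overlap in each.

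**Figure D1:**
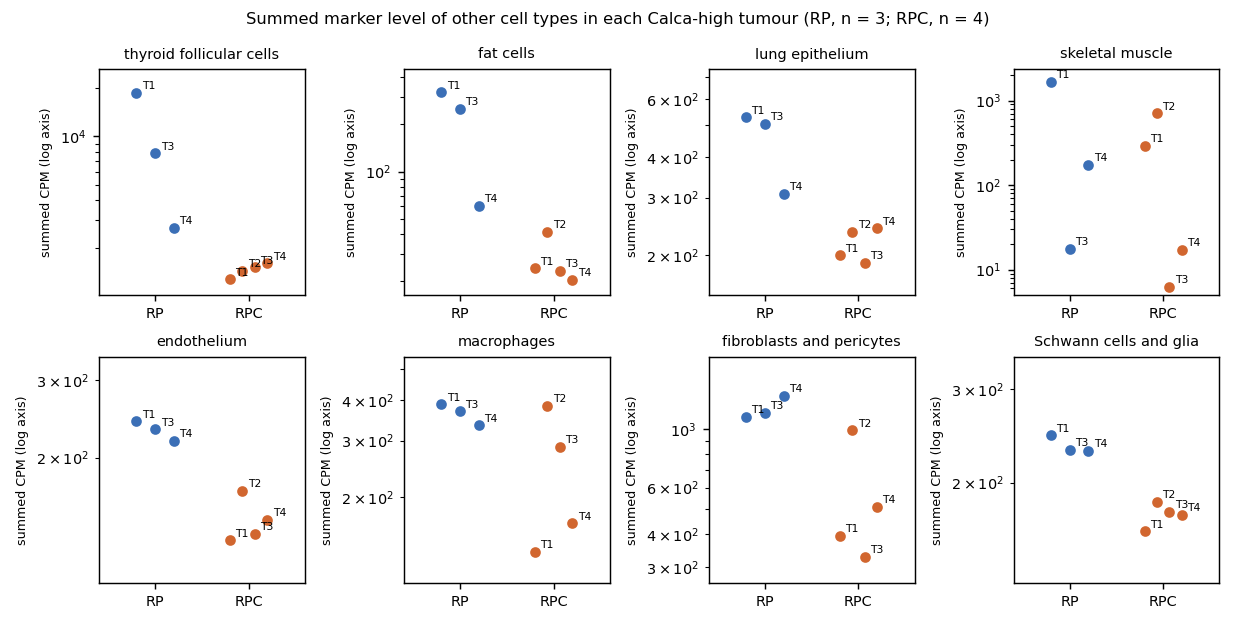
Summed marker level of 8 other cell types in each Calca-high tumour, in TMM-scaled CPM on a log axis, for Rb1/Trp53 (RP, T1, T3, T4) and Rb1/Trp53/Crebbp tumours (RPC, T1 to T4). Thyroid, fat, endothelial and glial sums are higher in every RP tumour than in every RPC tumour, while muscle sums overlap between 17.8 and 1673 CPM in RP and between 6.3 and 708 CPM in RPC.

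Between the genotypes 5355 of 14797 tested genes (36.2%) differed at an adjusted p under 0.05 (edgeR's quasi-likelihood test with Benjamini-Hochberg adjustment, used for every adjusted p here), 2821 higher (19.1%) and 2534 lower (17.1%) in the Crebbp tumours. A difference of at least 2-fold was found for 931 of the higher and 794 of the lower genes, and one of at least 4-fold for 306 and 205. Levels of the genotypes did not overlap for 3388 genes that were higher (22.9%) and 3168 that were lower (21.4%). Of the 5355 called genes 5134 did not overlap, so a lack of overlap in a called gene adds little to its call. Any list of genes is read below against these shares and against the median of all tested genes. That median was a log2 fold change of -0.02 (Crebbp over Rb1/Trp53, as all fold changes here). With 1 tumour left out both shares were smaller. Without Rb1/Trp53 T1, T3 or T4, 14.6%, 13.2% and 18.7% were higher and 12.1%, 10.7% and 16.6% lower. Without Crebbp T1, T2, T3 or T4, 17.1%, 16.4%, 13.9% and 14.1% were higher and 14.8%, 14.9%, 12.7% and 12.9% lower. List counts without 1 tumour are read against the shares of that fit.

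The difference followed the length of the transcript. For 14630 tested genes (98.9%) with an exon length in the reference annotation, the median log2 fold change ran from -0.43 in the bin with the shortest exons (median 1.04 kb, 26 genes higher and 625 lower) to 0.50 in the bin with the longest (median 8.87 kb, 785 higher and 47 lower), over 10 bins of equal size that each exceeded the one before. Across genes, which are not independent replicates, Spearman's rho of the fold change with exon length was 0.45, and with the genomic span of the gene 0.34. In the Pomc-high tumours the same bins had medians of 0.09 and -0.00066. The length of a list's members therefore stands beside its counts below, with the counts after each library's own length trend had been taken out (the length offset). Under that offset 1712 genes (11.7%) were higher and 1857 (12.7%) lower. A second set of counts uses Rb1/Trp53 T4 as the only Rb1/Trp53 tumour, leaving out T1 and T3 with their thyroid and fat RNA; there 1508 genes (9.85%) were higher and 1069 (6.98%) lower, and T4 is assumed to vary like the Crebbp tumours. With a term for the presence of Xist reads, which leaves Crebbp T1 as the tumour that sets the genotype apart, 309 genes (2.09%) were higher and 99 (0.669%) lower. With the endothelial, macrophage and fibroblast genes as a covariate 535 were higher and 209 lower, and with the thyroid genes 785 and 617. Rb1/Trp53 T4 still had higher thyroid and fat sums (2693 and 60.4 CPM) than any Crebbp tumour (at most 1615 and 41.4 CPM). A group of 1 tumour also leaves less power to call genes. The length, T4 and Xist settings were chosen after the data had been seen.

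**Figure D2:**
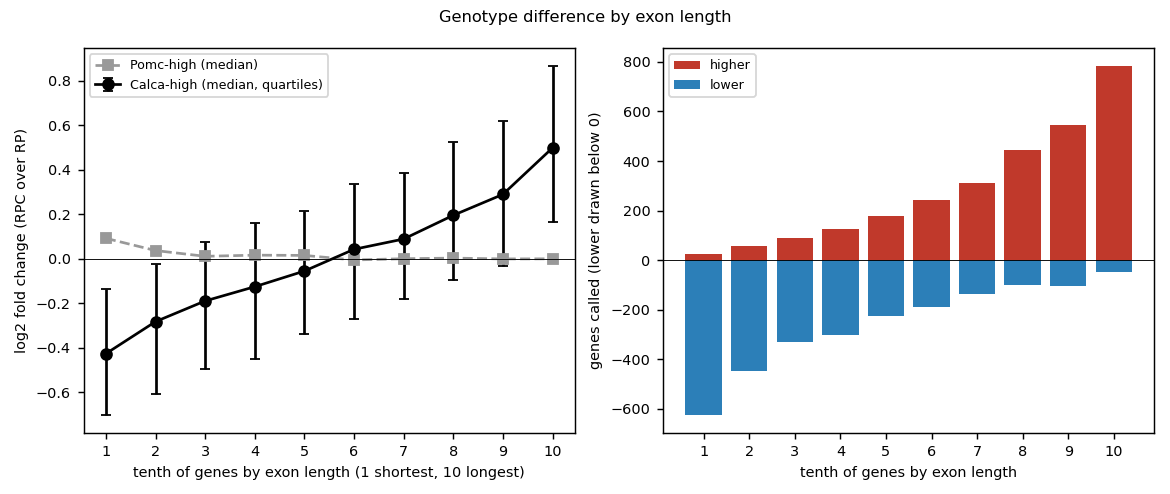
Genotype difference by exon length, in 10 bins of 1463 genes each. Left, median log2 fold change with quartiles in the Calca-high tumours and the median in the Pomc-high tumours; right, genes called higher and, below 0, lower. The Calca-high median climbs from -0.43 to 0.50, and the Pomc-high median stays between -0.0058 and 0.09.

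Of 21 tested C cell and calcitonin genes other than Calca, 11 fell and 1 rose in the Crebbp tumours (median -1.03). Calca itself is left out of this count because the choice of libraries used it; as a description, it took 11.8%, 16.5% and 15.1% of the reads in the Rb1/Trp53 and 7.59%, 6.02%, 4.03% and 7.35% in the Crebbp tumours. Ret, whose values are given above, was lower in all 4 Crebbp tumours than in any Rb1/Trp53 tumour (-1.23 ± 0.16, adjusted p = 0.00188). Gfra4, the co-receptor through which persephin acts on Ret, was at 316, 332 and 401 and at 168, 162, 184 and 189 CPM (-0.99 ± 0.11, adjusted p = 0.00118). Foxa2, a transcription factor of foregut endoderm, fell from 157, 169 and 177 to 115, 89.1, 98.4 and 86.5 CPM (-0.79 ± 0.11, adjusted p = 0.00224). Nkx2-1 fell by less (-0.58 ± 0.11, adjusted p = 0.00656). Thyroid follicular and lung epithelial cells also express Nkx2-1, and lung epithelium Foxa2; the marker sums of both cell types were higher in every Rb1/Trp53 tumour (10 of 13 and 5 of 9 markers lower in the Crebbp tumours), and their part in these 2 genes was not tested. The co-receptor for GDNF moved the other way: Gfra1 stood at 6.1, 3.05 and 0.996 CPM in the Rb1/Trp53 and at 19.7, 34, 41.1 and 31.8 CPM in the Crebbp tumours (3.22 ± 0.55, adjusted p = 0.00498). Calcrl and Ramp2, 2 of those that fell, are also expressed by endothelium. The median exon length of the 21 was 2.48 kb, against 3.32 kb over all genes; 8 fell with the length offset (median -0.68) and 7 with Rb1/Trp53 T4 alone.

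Over the list of granule and neuroendocrine genes, 14 of 42 fell and 4 rose, against 17.1% and 19.1% of all genes, with a median of -0.16; 2 rose without Rb1/Trp53 T3 and 9 without Rb1/Trp53 T4. With the length offset 11 fell, and with Rb1/Trp53 T4 alone 8. The list holds 4 processing enzymes of peptide hormones. Pcsk2, a prohormone convertase, was at 8163, 7549 and 6477 CPM in the Rb1/Trp53 tumours and at 2594, 2552, 1837 and 2643 CPM in the Crebbp tumours (-1.62 ± 0.17, adjusted p = 0.00111). Pcsk1, the other main convertase of the regulated pathway, stood at 805, 759 and 1034 and at 479.9, 378, 384 and 509 CPM (-0.98 ± 0.16, adjusted p = 0.00321). Pam, which amidates the C-terminal end of peptides such as calcitonin, was at 1026, 759 and 882 and at 374, 529, 368 and 451 CPM (-1.05 ± 0.16, adjusted p = 0.00284). These 3 were lower in each Crebbp tumour than in each Rb1/Trp53 tumour. The carboxypeptidase gene Cpe, the other enzyme, was at 1314, 1341 and 1544 and at 1095, 1650.0, 1659 and 1781 CPM, with overlap (0.14 ± 0.18, adjusted p = 0.55). Scg2, a granin of the secretory granule, fell from 14264, 12529 and 11404 to 4855, 9221, 4797 and 5435 CPM (-1.07 ± 0.25, adjusted p = 0.014). Chga, named after its values had been seen, went from 10499, 11717 and 8336 to 5838, 6226, 3329 and 5622 CPM (-0.95 ± 0.24, adjusted p = 0.0162). Syn2, a synaptic vesicle protein, also fell (-0.80 ± 0.13, adjusted p = 0.00321).

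Of 21 tested neuropeptide genes 4 fell, against 17.1% of all genes, and 1 rose; without Crebbp T1, T2 or T3 2 fell, and without Rb1/Trp53 T4 2 rose. Gcg, the proglucagon gene, was at 0, 0.0402 and 0 CPM in the Rb1/Trp53 tumours, a single read in all, and at 1.36, 4.05, 4.47 and 12.5 CPM in the Crebbp tumours (adjusted p = 0.00251). Edn1, endothelin 1, was at 9.44, 6.11 and 1.94 and at 0.906, 1.37, 0.474 and 0.816 CPM (-2.7 ± 0.56, adjusted p = 0.00839), and Npy at 1.89, 2.17 and 1.47 and at 0.34, 0.392, 0.61 and 1.13 CPM (-1.53 ± 0.44, adjusted p = 0.0278). The call for Npy ended without any single tumour other than Rb1/Trp53 T4 and Crebbp T4 (adjusted p 0.0566 to 0.0915).

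**Figure D3:**
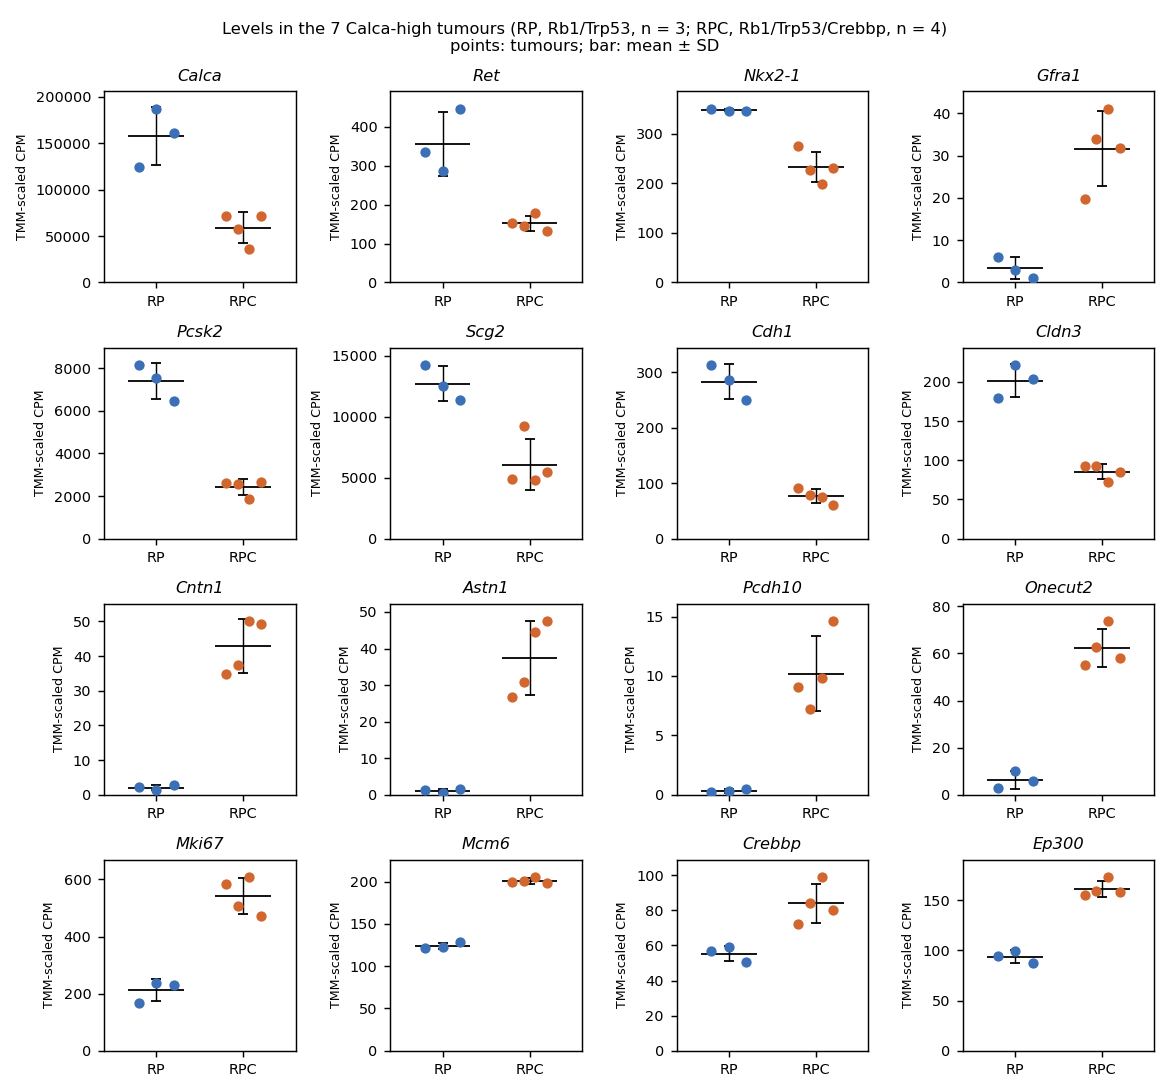
Level of 16 genes in each Calca-high tumour, in TMM-scaled CPM from 0, with the mean and SD of the 3 Rb1/Trp53 (RP) and 4 Rb1/Trp53/Crebbp tumours (RPC). Ret, Nkx2-1, the granule genes Pcsk2 and Scg2 and the junction genes Cdh1 and Cldn3 are lower in every RPC tumour. The other 9 tested genes are higher in every RPC tumour. Calca, also lower in every RPC tumour, is drawn as a description, because the choice of libraries used it.

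Transcription factors of neuroendocrine and neuronal cells changed in both directions. Onecut2, a homeodomain factor, stood at 2.66, 10.1 and 5.93 CPM in the Rb1/Trp53 and at 55.2, 62.6, 73.8 and 58.2 CPM in the Crebbp tumours (3.32 ± 0.40, adjusted p = 0.00181). Prox1, a homeodomain factor of endocrine and neural progenitors, rose from 44.1, 45 and 49.5 to 113, 129, 169 and 135 CPM (1.56 ± 0.14, adjusted p = 0.00078). Myt1l, a zinc finger factor of neurons, went from 38.6, 55.6 and 45.1 to 99.2, 104, 99.7 and 104 CPM (1.13 ± 0.12, adjusted p = 0.00118). In the other direction, Nkx2-2, a homeodomain factor of endocrine pancreas and ventral neural tube, went from 10.2, 10.6 and 23.2 to 1.47, 0.98, 0.542 and 0.753 CPM (-4.0 ± 0.42, adjusted p = 0.00112). In each of these 4 genes the genotypes did not overlap, as in most called genes. In all, 7 of 24 rose and 6 fell (median -0.18); with the length offset 4 rose and 5 fell, and with Rb1/Trp53 T4 alone 5 and 4. Without Rb1/Trp53 T3 4 rose.

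Genes of neuronal differentiation were higher. Elavl2, a neuronal RNA-binding protein, stood at 0.872, 0.844 and 1.47 CPM in the Rb1/Trp53 tumours and at 19.7, 9.74, 8.67 and 10.7 CPM in the Crebbp tumours (3.52 ± 0.39, adjusted p = 0.00126). Rbfox1, a neuronal splicing factor, was at 4.55, 3.05 and 1.84 and at 19.9, 33.6, 26.3 and 22 CPM (3.01 ± 0.33, adjusted p = 0.0012). Mapt, the microtubule protein tau, rose from 41.3, 29.6 and 28.5 to 70.3, 57.8, 85.7 and 73.9 CPM (1.12 ± 0.17, adjusted p = 0.00295). Gpm6b, a membrane protein of neurons and glia, went from 3.58, 8.12 and 5.98 to 37.4, 27.2, 62.5 and 21.5 CPM (2.65 ± 0.44, adjusted p = 0.00453). Of 29 tested, 15 rose and 1 (Celf3) fell, with a median of 0.63; no member was called lower without any 1 tumour other than Crebbp T2 and T3. Their median exon length was 4.76 kb; 13 rose with the length offset and 6 with Rb1/Trp53 T4 alone.

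Adhesion genes divided by kind. Cdh1, E-cadherin of epithelial junctions, stood at 314, 286 and 250.2 CPM in the Rb1/Trp53 and at 91.4, 79.1, 75.8 and 60.1 CPM in the Crebbp tumours (-1.89 ± 0.15, adjusted p = 0.000586). Cldn3, a claudin of tight junctions, was at 180.1, 222 and 203 and at 92.1, 92.1, 72.7 and 84.7 CPM (-1.24 ± 0.11, adjusted p = 0.00078). Every Crebbp tumour lay below every Rb1/Trp53 tumour in both. Rab25, a small GTPase of apical recycling, went from 64, 59.2 and 64.4 to 38.6, 38.5, 36.4 and 37.1 CPM (-0.73 ± 0.08, adjusted p = 0.00103). Spint1, an inhibitor of epithelial serine proteases, went from 212, 201 and 189.5 to 118, 111, 103 and 122 CPM (-0.82 ± 0.09, adjusted p = 0.00115). Over the epithelial junction list 20 of 50 fell and 6 rose (median -0.33, exon length 3.21 kb). Without Rb1/Trp53 T1, Rb1/Trp53 T3 or Crebbp T2 the falls numbered 11, 12 and 13, and without Crebbp T2 or T3 there were 3 rises. Over all genes the falls in those fits were 12.1%, 10.7% and 14.9%, and the rises without Crebbp T2 or T3 16.4% and 13.9%. With the length offset 15 fell, and with Rb1/Trp53 T4 alone 7 fell and 6 rose; follicular and lung epithelium also express many of these genes.

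Other cadherins and the adhesion proteins of neurons were higher. Pcdh10, a protocadherin, stood at 0.194, 0.281 and 0.472 CPM in the Rb1/Trp53 and at 9.06, 7.19, 9.82 and 14.6 CPM in the Crebbp tumours (5.0 ± 0.41, adjusted p = 0.000667). Pcdh17, another protocadherin, was at 0.726, 1.25 and 0.839 and at 9.4, 8.17, 13.3 and 13.9 CPM (3.56 ± 0.32, adjusted p = 0.00078). Fat3, a giant atypical cadherin, was at 0.145, 0.321 and 0.262 and at 8.38, 4.18, 4 and 2.64 CPM (4.24 ± 0.54, adjusted p = 0.00172). All 3 were under 1.3 CPM in each Rb1/Trp53 tumour. Among the cadherins and protocadherins, Cdh1 included, 19 of 31 rose and 2 fell (median 1.09). These genes are long, with a median exon length of 8.17 kb; with the length offset 9 rose, with Rb1/Trp53 T4 alone 9, and without Crebbp T4 12.

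Among neuronal adhesion genes, Astn1, the astrotactin that guides migrating neurons along glia, stood at 1.16, 0.482 and 1.57 CPM against 26.8, 30.8, 44.6 and 47.5 CPM (5.15 ± 0.41, adjusted p = 0.000727). Cntn1, a contactin of axons, was at 2.08, 1.29 and 2.78 and at 34.8, 37.6, 50.1 and 49.2 CPM (4.4 ± 0.29, adjusted p = 0.000521). Chl1, a close homologue of the adhesion protein L1, rose from 28.6, 26 and 24.8 to 68.1, 92.5, 88.6 and 111 CPM (1.77 ± 0.16, adjusted p = 0.00078). Nlgn3, a neuroligin of the postsynaptic side, went from 5.86, 3.3 and 7.45 to 26.3, 22.2, 36.9 and 31.6 CPM (2.41 ± 0.30, adjusted p = 0.00173). None of the 4 overlapped between the genotypes, as was true of most called genes. In this list 21 of 38 rose and 1 fell (median 0.74, exon length 7.04 kb). The count was 13 with the length offset, at a median of 0.37, 15 with Rb1/Trp53 T4 alone and 13 without Rb1/Trp53 T3, and the fall was called in no fit without 1 tumour other than that without Rb1/Trp53 T4.

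Of 19 tested genes of mesenchymal transition 3 rose and 1 fell, against 19.1% and 17.1% of all genes. Without Crebbp T2 6 fell, without Rb1/Trp53 T4 2 fell, without any other tumour 0 fell, and without Rb1/Trp53 T3 1 rose. Cdh2, N-cadherin, was at 29.2, 38.7 and 60.4 CPM in the Rb1/Trp53 and at 67.2, 82.1, 79.5 and 79.9 CPM in the Crebbp tumours (0.85 ± 0.23, adjusted p = 0.0215), and with the level of thyroid follicular genes as a covariate its fold change was -0.00874. The call for Cdh2 ended without Rb1/Trp53 T3, Crebbp T3 or Crebbp T4 (adjusted p = 0.0751, 0.0589 and 0.0568). Tgfb2, a TGF-beta ligand, rose from 0.872, 0.884 and 0.944 to 2.49, 4.44, 4.95 and 2.51 CPM (2.0 ± 0.36, adjusted p = 0.00498), while Prrx1, a mesenchymal homeodomain factor, went from 5.81, 6.43 and 4.82 to 1.93, 3.86, 1.83 and 2.76 CPM (-1.12 ± 0.31, adjusted p = 0.0237), a call that ended without any single tumour other than Rb1/Trp53 T4 and Crebbp T2 (adjusted p 0.0508 to 0.0815).

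Ion channels and neurotransmitter receptors were higher in many members. Scn9a, a voltage-gated sodium channel, stood at 10.9, 9.68 and 13 CPM in the Rb1/Trp53 and at 39.3, 36.4, 42.6 and 49.2 CPM in the Crebbp tumours (1.9 ± 0.15, adjusted p = 0.000586). Scn2a1, another, was at 12.5, 15.4 and 13.6 and at 24.5, 27.2, 32.7 and 27.8 CPM (1.02 ± 0.14, adjusted p = 0.00188). Scn8a and Cacna1d rose by smaller amounts, 0.61 (adjusted p = 0.00278) and 0.59 (adjusted p = 0.00362); the length offset turned the sign of the first, to -0.0944, and an offset for genomic span that of the second, to -0.0831. Of 31 sodium and calcium channel genes 18 rose and 2 fell (median 0.67, exon length 7.93 kb), against 9 and 4 with the length offset and 10 and 1 with Rb1/Trp53 T4 alone. Grid1, a delta glutamate receptor, stood at 0.436, 0.603 and 0.734 and at 10.9, 8.63, 20.3 and 13 CPM (4.47 ± 0.39, adjusted p = 0.00078). Grin2d, an NMDA receptor subunit, fell from 38.2, 27.7 and 33.4 to 12.3, 14.9, 12.4 and 16.6 CPM (-1.23 ± 0.16, adjusted p = 0.00171). Among the GABA, glycine and glutamate receptors 12 of 30 rose and 2 fell (median 0.74), 9 and 3 with the length offset.

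Potassium channels split. Kcnj6, a G protein-gated channel, rose from 5.13, 7.15 and 7.76 to 13.6, 15.8, 21 and 15.4 CPM (1.3 ± 0.21, adjusted p = 0.0034). Kcnj11, the pore of the ATP-sensitive channel, fell from 73.5, 84 and 94.1 to 41.9, 36.7, 34.4 and 28.2 CPM (-1.25 ± 0.14, adjusted p = 0.0013). Kcnh3, an ether-a-go-go channel, went from 362, 269 and 198 to 115, 81.4, 77.3 and 109 CPM (-1.53 ± 0.22, adjusted p = 0.00256). Of 45 tested 16 rose and 5 fell (3 without Rb1/Trp53 T3 or Crebbp T4); the median of 0.35 became -0.01 with the length offset. Axon guidance genes rose in 14 and fell in 5 of 41 cases (exon length 6.33 kb; 8 and 7 with the length offset, 9 rises and 3 falls without Rb1/Trp53 T1, 2 falls without Rb1/Trp53 T3 and 3 without Crebbp T4). Among them were plexins, receptors of semaphorins. Plxnc1 stood at 5.28, 6.91 and 6.87 and at 22.7, 26.2, 31.8 and 26.7 CPM (2.08 ± 0.17, adjusted p = 0.000586) and Plxna2 at 20.3, 21.5 and 23.3 and at 50.3, 60, 63.1 and 71.9 CPM (1.5 ± 0.13, adjusted p = 0.00078). Efnb2, an ephrin ligand, was at 10.5, 9.16 and 8.76 and at 46.4, 33.6, 28.6 and 42.7 CPM (1.99 ± 0.19, adjusted p = 0.000877).

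CREB, the factor after which CBP is named, binds the cAMP response element, TGACGTCA, or its half-site TGACG, which reads CGTCA on the other strand. Th encodes the rate-limiting enzyme of catecholamine synthesis, and Pck1 the gluconeogenic enzyme PEPCK. Both genes and Calca hold such letters within 250 bases upstream of the start in RefSeq's GRCm38.p6. Th and Pck1 were lower in the Crebbp tumours. Calca is shown as a description, because the choice of libraries used it. Their upstream windows are shown, 5′ to 3′ on the gene's own strand, because they place the element in the 3 genes; capitals mark the full site in Th and the half-sites in Calca and Pck1. The 3 genes were picked after their values had been seen, and a part of the element in their levels was not tested. Among all 28 tested CREB factors and cAMP targets 9 rose and 3 fell, against 19.1% and 17.1% of all genes. The 28 include Pomc, which the choice of libraries used and which was not called (adjusted p = 0.83).
Th (chr7:142899996-142900245, minus strand): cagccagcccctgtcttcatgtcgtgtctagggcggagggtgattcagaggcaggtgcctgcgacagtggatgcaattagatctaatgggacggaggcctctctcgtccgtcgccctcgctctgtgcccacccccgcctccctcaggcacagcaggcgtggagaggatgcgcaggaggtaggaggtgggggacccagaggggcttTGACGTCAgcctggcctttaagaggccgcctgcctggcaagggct
Calca (chr7:114636358-114636607, minus strand): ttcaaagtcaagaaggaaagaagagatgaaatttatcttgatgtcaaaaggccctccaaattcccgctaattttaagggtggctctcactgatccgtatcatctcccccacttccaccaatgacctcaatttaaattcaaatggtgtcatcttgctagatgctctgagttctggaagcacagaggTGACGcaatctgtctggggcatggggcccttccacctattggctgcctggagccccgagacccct
Pck1 (chr2:173152823-173153072, plus strand): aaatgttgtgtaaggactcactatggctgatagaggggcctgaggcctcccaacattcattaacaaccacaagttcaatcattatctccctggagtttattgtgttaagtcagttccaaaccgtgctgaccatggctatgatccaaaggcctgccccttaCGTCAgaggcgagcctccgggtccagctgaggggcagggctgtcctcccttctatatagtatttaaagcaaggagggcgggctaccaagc
The first capital lies 45 bases upstream of the start in Th, 65 in Calca and 90 in Pck1. On either strand a full site was in the windows of 3.07% of 10454 tested genes with a window, 3.28% of 2010 that rose and 3.01% of 1793 that fell, and a half-site, which the full site contains, in 29.5%, 31.3% and 29.1%. Over all 32851 windows of this length the shares were 1.55% and 17.8%. A match is a description of letters and not evidence of binding.

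Cyclic AMP targets changed in both directions. Pck1 stood at 17.2, 17 and 1.94 CPM in the Rb1/Trp53 and at 0, 0.0653, 0.0678 and 0.126 CPM in the Crebbp tumours (-7.25 ± 0.95, adjusted p = 0.00204); fat and liver also express it, and its 2 highest libraries, Rb1/Trp53 T1 and T3, were those with the most fat cell RNA. Sik1, a kinase that cAMP induces and that restrains CREB coactivators, fell from 275, 105 and 115 to 19.4, 34.4, 29.1 and 39.1 CPM (-2.43 ± 0.38, adjusted p = 0.00366). Nr4a3, an orphan nuclear receptor and immediate-early gene, was at 0.145, 0.0402 and 0.21 and at 1.02, 1.83, 2.98 and 2.57 CPM (3.99 ± 0.60, adjusted p = 0.00271). Its relative Nr4a1 stood at 6.2, 6.35 and 12.4 and at 11.3, 14, 22 and 21.1 CPM (1.05 ± 0.33, adjusted p = 0.0398), with Rb1/Trp53 T4 above Crebbp T1; this call ended without any single tumour other than Rb1/Trp53 T4 and Crebbp T1 (adjusted p 0.0501 to 0.127). Pde10a, a phosphodiesterase that breaks down cyclic nucleotides, rose from 8.18, 11.2 and 9.91 to 19.1, 32.5, 21.1 and 39.9 CPM (1.53 ± 0.28, adjusted p = 0.00519). Of 28 CREB factors and targets 9 rose and 3 fell (median 0.35); with the length offset 7 and 3, with Rb1/Trp53 T4 alone 4 and 4. Without Rb1/Trp53 T1 3 rose, and without Crebbp T4 5. The 28 and their median include Pomc, which the choice of libraries used.

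Crebbp reads were not lower in the Crebbp tumours. The gene stood at 56.8, 58.9 and 50.4 CPM in the Rb1/Trp53 and at 72.3, 84.3, 98.9 and 80.3 CPM in the Crebbp tumours (0.60 ± 0.12, adjusted p = 0.00723); its transcript is long, and the length offset brought the value to -0.0516. Counts over the whole gene cannot show the loss of single exons, so this does not check the genotype labels. In the Pomc-high tumours the fold change was -0.47 (adjusted p = 0.239). Ep300 was at 94.6, 99.9 and 87 and at 155, 159, 173 and 158 CPM (0.78 ± 0.09, adjusted p = 0.00118). Rb1, engineered in both genotypes, was at 66.9, 69.6 and 66.5 and at 104, 76, 73.7 and 77.5 CPM (0.29 ± 0.13, adjusted p = 0.112), with Crebbp T1 apart from the rest. Trp53, likewise engineered in both, was lower, at 35, 26.4 and 22 and at 18.7, 16.1, 12.5 and 15 CPM (-0.84 ± 0.19, adjusted p = 0.0116).

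Acetyltransferases and coactivators rose in 9 of 21 cases, Crebbp and Ep300 included, and fell in 3, with a median of 0.14 that became -0.02 with the length offset, where 3 rose and 3 fell. Ncoa2, a nuclear receptor coactivator, was at 70.7, 70.4 and 59 and at 108, 121, 137 and 114 CPM (0.85 ± 0.11, adjusted p = 0.00187). Taf1, a subunit of TFIID, was at 103, 107 and 94 and at 159, 149.5, 163 and 163 CPM (0.65 ± 0.08, adjusted p = 0.00173). Myst4, an acetyltransferase also called Kat6b, was at 39.8, 38.3 and 30.5 and at 59.5, 72.6, 70.3 and 69 CPM (0.91 ± 0.12, adjusted p = 0.00188). Among deacetylases and other chromatin enzymes 14 of 36 rose and 4 fell (exon length 5.94 kb; 8 and 5 with the length offset, and 2 falls without Rb1/Trp53 T4, Crebbp T1 or Crebbp T4). Hdac11, a class IV deacetylase, fell from 119, 108 and 136 to 51.5, 60.4, 54.9 and 49.2 CPM (-1.16 ± 0.11, adjusted p = 0.00084). The methyltransferase gene Mll3, also called Kmt2c, rose from 112, 133 and 98.7 to 191, 194, 212 and 201 CPM (0.80 ± 0.11, adjusted p = 0.00219), and Setd2, another histone methyltransferase gene, rose by 0.58 (adjusted p = 0.00188). Of the 19 tested genes next to Crebbp on its chromosome, 5 rose (2 or 3 without any 1 tumour other than Rb1/Trp53 T1 and Crebbp T1) and 2 fell, against 19.1% and 17.1% of all genes; Slx4, a scaffold of DNA repair nucleases, had the smallest p among them, at 31.7, 37.1 and 33.9 and 63.7, 51, 64 and 61.8 CPM (0.81 ± 0.11, adjusted p = 0.00193).

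Genes of DNA replication and mitosis were higher in the Crebbp tumours. Mki67, the proliferation marker Ki-67, stood at 168, 237 and 232 CPM in the Rb1/Trp53 and at 584, 507, 608 and 472 CPM in the Crebbp tumours (1.36 ± 0.16, adjusted p = 0.00133). Ccne2, cyclin E2, was at 16.8, 20.1 and 20.2 and at 44.4, 49.3, 47 and 51 CPM (1.33 ± 0.11, adjusted p = 0.000586). Mcm6, a subunit of the replicative helicase, rose from 121, 123 and 128 to 199, 201, 205 and 198 CPM (0.70 ± 0.07, adjusted p = 0.00107). Cdt1, a licensing factor, went from 39.3, 41.9 and 34.7 to 68.2, 66.9, 68.3 and 64.2 CPM (0.79 ± 0.09, adjusted p = 0.00126). Cenpe, a kinesin of the kinetochore, went from 28.1, 34.2 and 38.3 to 73.5, 77, 87.3 and 70.4 CPM (1.2 ± 0.13, adjusted p = 0.00115). The genotypes did not overlap in any of the 5, as in most called genes. Of 42 replication genes and E2F targets 27 rose (median 0.49) and the other 15 did not pass the test, and of 36 mitotic genes 27 rose (median 0.74) and 9 did not pass. The exon lengths of these lists, 3.22 and 3.52 kb, were close to that of all genes, and with the length offset 30 and 23 rose. With Rb1/Trp53 T4 alone 13 and 8 rose (medians 0.37 and 0.41), and with the thyroid genes as a covariate 6 and 1, with a mitotic median of 0.06.

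Regulators around p53, Rb and Myc were mixed. Btg2, an antiproliferative p53 target, fell from 205, 228 and 209 to 116, 111, 131 and 121 CPM (-0.83 ± 0.09, adjusted p = 0.00111). Bbc3, the apoptosis inducer Puma, went from 21.9, 24 and 30.9 to 17.8, 13, 18 and 14.4 CPM (-0.70 ± 0.17, adjusted p = 0.0149). Mdm2, the ubiquitin ligase of p53 and its target, rose by 0.35 (adjusted p = 0.0143). Of 25 p53 targets 5 rose and 6 fell, against 19.1% and 17.1% of all genes, with a median of -0.02. Between 1 and 3 rose without any 1 tumour other than Crebbp T2, and 3 fell without Rb1/Trp53 T3. Myc was at 5.96, 6.15 and 5.77 and at 10.3, 12.1, 11.6 and 8.98 CPM (0.85 ± 0.17, adjusted p = 0.00724). Nfib, a transcription factor amplified in mouse small cell lung cancer, rose from 414, 478 and 459.9 to 625, 848, 684 and 770.2 CPM (0.70 ± 0.13, adjusted p = 0.00527), its relative Nfix rose by 1.35 (adjusted p = 0.00135), and Ccnd2, cyclin D2, fell from 52.6, 33.7 and 19.2 to 9.74, 9.93, 11.4 and 13.5 CPM (-1.65 ± 0.31, adjusted p = 0.00602).

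Ribosomal protein and respiratory chain genes were lower, and both lists are short genes. Rps23 stood at 237, 219 and 206 CPM in the Rb1/Trp53 and at 138, 142, 128 and 128 CPM in the Crebbp tumours (-0.72 ± 0.09, adjusted p = 0.00145), and Rplp1 at 900.4, 816 and 849 and at 533, 555, 476 and 508 CPM (-0.72 ± 0.10, adjusted p = 0.00187). Ndufb3, a subunit of complex I, was at 77.4, 81.2 and 79.9 and at 55.6, 51, 48 and 51.5 CPM (-0.63 ± 0.08, adjusted p = 0.00169). Of 48 ribosomal protein genes 43 fell (median -0.50, exon length 1.08 kb), but 4 with the length offset (median -0.09). Of 42 oxidative phosphorylation genes 24 fell (median -0.33, 1.19 kb), and with the length offset 2 fell, 1 rose and the median turned to 0.06. Ribosomal protein genes have many near-identical pseudogenes, so their counts are uncertain.

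Detoxification genes fell, also with the length offset. Gstm1, a glutathione transferase, stood at 176, 238 and 280.3 CPM in the Rb1/Trp53 and at 75.8, 68, 62.3 and 42.9 CPM in the Crebbp tumours (-1.9 ± 0.22, adjusted p = 0.00138). Gstm2 was at 31.5, 27.1 and 18.9 and at 4.08, 4.7, 4.27 and 6.53 CPM (-2.39 ± 0.23, adjusted p = 0.000911). Gpx2, a glutathione peroxidase of epithelia, was at 22, 12.5 and 11.3 and at 1.59, 1.7, 1.97 and 3.14 CPM (-2.84 ± 0.33, adjusted p = 0.00136). Of 33 genes 21 fell (median -0.94, exon length 1.83 kb), 15 with the length offset and 12 with Rb1/Trp53 T4 alone (median -0.77). The Gstm genes are close paralogues, so reads may be divided between them.

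In the hypoxia and glycolysis list 6 of 34 rose, against 19.1% of all genes, 20 rose without Rb1/Trp53 T4, and the median was 0.47. With Rb1/Trp53 T4 alone 3 rose and the median was 0.03, and with the thyroid covariate it was -0.34. Car9, the hypoxia-induced carbonic anhydrase IX, stood at 0.63, 1.45 and 2.26 CPM in the Rb1/Trp53 and at 17.7, 19.5, 13.8 and 16.7 CPM in the Crebbp tumours (3.55 ± 0.38, adjusted p = 0.00118), while in the Pomc-high tumours its fold change was -2.4 ± 0.50, adjusted p = 0.0122. Pfkfb3, an activator of glycolysis, rose from 25.8, 33.1 and 28.2 to 67, 96.6, 137 and 67.9 CPM (1.67 ± 0.27, adjusted p = 0.00363). Pdk1, which restrains pyruvate dehydrogenase, went from 60.1, 64.5 and 85.6 to 133, 129.8, 150.2 and 122 CPM (0.93 ± 0.14, adjusted p = 0.00256). Acly, which makes cytosolic acetyl-CoA from citrate, was at 382, 509.9 and 330.2 and at 653, 895, 954 and 1073 CPM (1.13 ± 0.21, adjusted p = 0.00524). In all, 10 of 34 sterol and fatty acid genes rose and 4 fell, with 6 rises without Crebbp T4 and 2 falls without Rb1/Trp53 T1. Unfolded protein response genes fell in 8 of 26 cases (14 without Rb1/Trp53 T4) and rose in 2 (1 without Rb1/Trp53 T1, Rb1/Trp53 T4 or Crebbp T3), with Dnajb9, a chaperone of the endoplasmic reticulum, at 119, 117 and 102 and 72.5, 72, 62.3 and 71.3 CPM (-0.70 ± 0.09, adjusted p = 0.00188).

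In antigen presentation, the regulators Ciita and Nlrc5 rose and several other members fell. Ciita, the transactivator of MHC class II genes, stood at 1.7, 1.61 and 1.52 CPM in the Rb1/Trp53 and at 8.72, 19.4, 21.3 and 15.6 CPM in the Crebbp tumours (3.34 ± 0.33, adjusted p = 0.000977). Nlrc5, that of class I genes, was at 3.49, 7.35 and 5.87 and at 14.4, 11.4, 22.6 and 12.6 CPM (1.45 ± 0.32, adjusted p = 0.0113). Tap2, a peptide transporter for class I loading, fell from 90.3, 92.3 and 99.4 to 60.9, 70.2, 58.1 and 67.9 CPM (-0.55 ± 0.09, adjusted p = 0.00398). H2-M3, a class I molecule, went from 21.7, 21 and 18.4 to 12.2, 14.9, 12 and 13.9 CPM (-0.62 ± 0.13, adjusted p = 0.00822). In all 7 of 21 fell (2 without Rb1/Trp53 T3) and 2 rose, and the median of -0.18 became 0.08 with the length offset. Macrophages and lymphocytes express many of these genes. Interferon response genes fell in 8 and rose in 4 of 34 cases, against 17.1% and 19.1% of all genes. There were 5 falls without Rb1/Trp53 T3, and 0, 2, 2 and 1 rises without Rb1/Trp53 T1, Rb1/Trp53 T3, Crebbp T2 and Crebbp T3. Usp18, which dampens interferon signalling, went from 45.4, 68.9 and 54.5 to 30.2, 25.2, 33.1 and 21.9 CPM (-1.03 ± 0.18, adjusted p = 0.0046).

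Signalling pathways of development changed in single members. Each list count over all 7 tumours in this paragraph stands against 19.1% of all genes higher and 17.1% lower. In the Notch pathway Hes1, a target, fell from 31.1, 20.8 and 14.2 to 8.27, 6.21, 5.83 and 7.97 CPM (-1.64 ± 0.27, adjusted p = 0.00337). Heyl, another target, went from 10.2, 8.88 and 7.71 to 2.61, 3.33, 3.52 and 4.4 CPM (-1.35 ± 0.23, adjusted p = 0.00399), and the inhibitory ligand Dll3 from 89.5, 31.1 and 16.9 to 11.2, 4.57, 10.8 and 9.42 CPM (-2.35 ± 0.57, adjusted p = 0.0178); with the thyroid covariate the Dll3 value was 0.0307. In this list 6 of 28 fell and 3 rose, with 0 rises without Crebbp T3 and 1 without any other tumour but Crebbp T1 and T4. Among Wnt genes, 4 of 40 rose and 5 fell, against 19.1% and 17.1% of all genes; the receptor Fzd3 rose from 20.8, 18.4 and 21 to 39.1, 38.2, 35.3 and 36.1 CPM (0.89 ± 0.10, adjusted p = 0.00115), the ligand Wnt5b from 3.15, 3.98 and 3.67 to 8.04, 11.8, 9.62 and 11.4 CPM (1.51 ± 0.21, adjusted p = 0.00218), and the receptor Fzd6 fell from 48.8, 65.7 and 46.4 to 14.2, 22.3, 15.2 and 31.2 CPM (-1.36 ± 0.28, adjusted p = 0.00833). In the BMP and TGF-beta pathways the receptors Bmpr1b and Bmpr2 rose by 1.91 and 1.85 (adjusted p = 0.000929 and 0.00214), and Id4, an inhibitor of bHLH factors and BMP target, fell from 56.6, 27.6 and 22.7 to 7.7, 5.88, 5.42 and 7.53 CPM (-2.43 ± 0.32, adjusted p = 0.00199); 9 of 39 rose and 7 fell, with 3 rises without Rb1/Trp53 T3 and 5 without Crebbp T3, and with 11 falls without Rb1/Trp53 T4 and 4 without Crebbp T1 or T3. Of 27 laminins, integrins and related genes 3 rose and 5 fell (3 without any 1 tumour other than Rb1/Trp53 T4 and Crebbp T2). Itgb8, an integrin that activates TGF-beta, was at 0.92, 0.563 and 0.262 and at 3.4, 5.55, 7.05 and 5.71 CPM (3.21 ± 0.46, adjusted p = 0.0023). Lamb2, a laminin chain, was at 64.6, 41.5 and 28.9 and at 10.2, 16.3, 11 and 14.4 CPM (-1.79 ± 0.28, adjusted p = 0.00322).

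**Figure D4:**
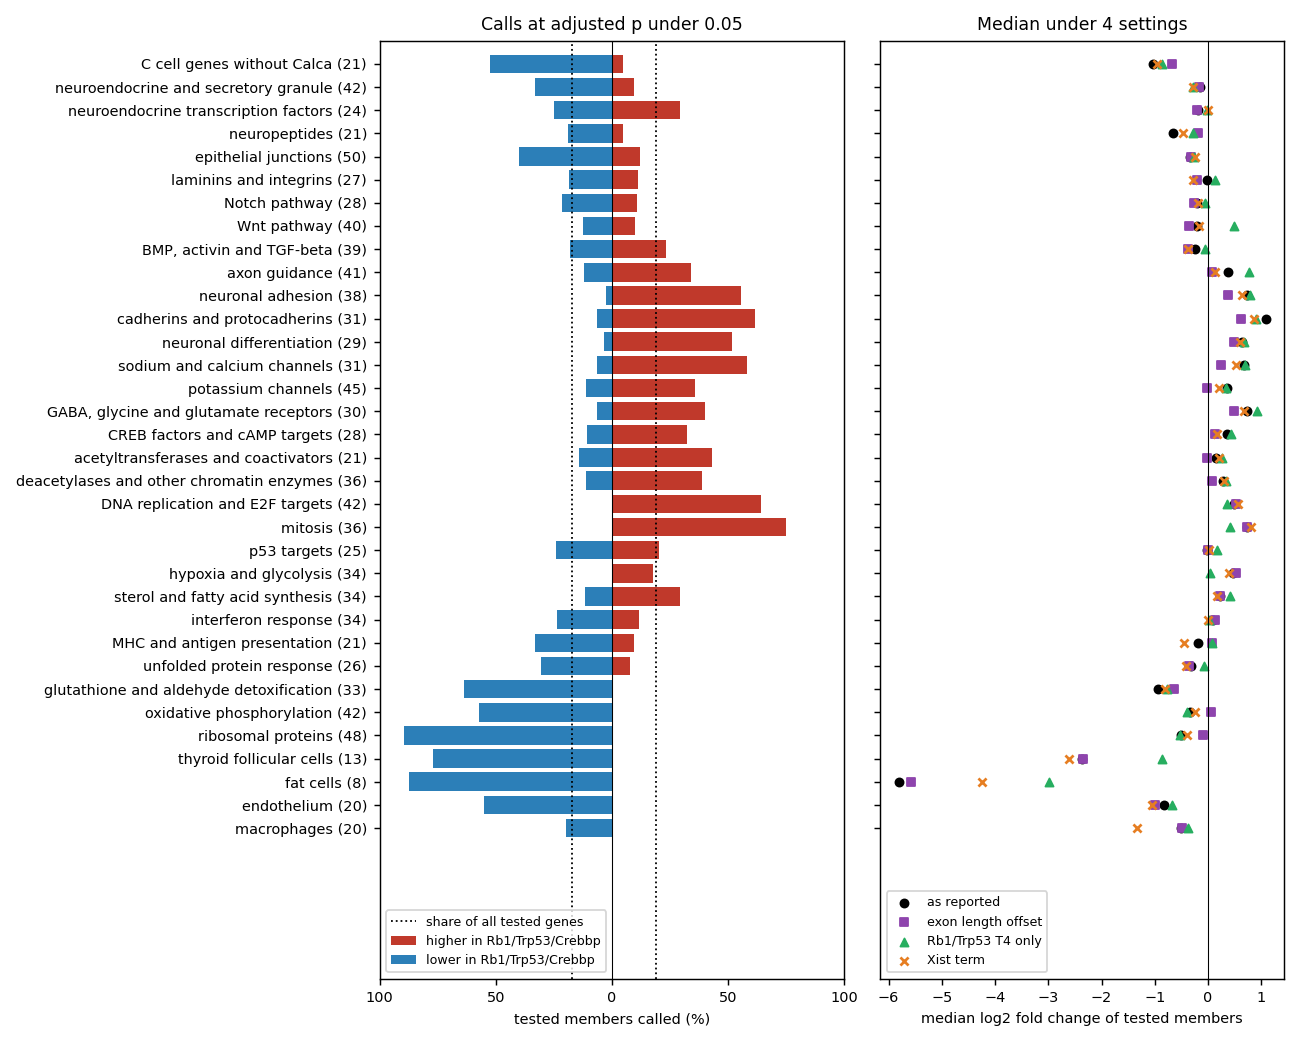
Left, share of tested members of 34 gene lists called higher or lower in the Rb1/Trp53/Crebbp tumours, with dotted lines at the 19.1% and 17.1% of all tested genes and the number tested in parentheses. Right, median log2 fold change of each list as reported, with the length offset, with Rb1/Trp53 T4 as the only Rb1/Trp53 tumour and with a term for Xist; the medians of mitosis, replication, neuronal adhesion and cadherins stay above 0 and those of the C cell list (drawn without Calca), junction and detoxification lists below 0 in all 4.

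The largest rises by the fixed rule included genes with almost no reads in the Rb1/Trp53 tumours. Dmbx1, a homeodomain factor of the midbrain, stood at 0.0969, 0.121 and 0.105 CPM in the Rb1/Trp53 and at 10.4, 7.38, 14.2 and 3.08 CPM in the Crebbp tumours (6.25 ± 0.66, adjusted p = 0.00114). Calb1, the calcium buffer calbindin, was at 0.872, 1.08 and 1.57 and at 16.7, 18.8, 59.8 and 67.8 CPM (5.12 ± 0.69, adjusted p = 0.00234). Necab1, a neuronal calcium-binding protein, was at 0.775, 0.603 and 1.89 and at 19.3, 12, 20.7 and 23.1 CPM (4.12 ± 0.44, adjusted p = 0.00115). Add2, an adducin of the membrane skeleton, was at 0.533, 0.683 and 2.26 and at 16.4, 20.5, 24.1 and 17.5 CPM (4.1 ± 0.49, adjusted p = 0.00158). Irs4, an insulin receptor substrate, was at 5.62, 2.57 and 1.52 and at 41.6, 44.7, 61.9 and 63.1 CPM (4.03 ± 0.43, adjusted p = 0.00135). Gulo, the last enzyme of vitamin C synthesis, was at 0.678, 1.45 and 1.94 and at 12.3, 45.2, 7.45 and 27.9 CPM (4.1 ± 0.73, adjusted p = 0.00578). Hoxd3 was uneven, at 0.242, 0.0402 and 0.105 CPM against 30.8, 3.33, 31.4 and 0.251 CPM (6.95 ± 1.86, adjusted p = 0.0275): it was high in Crebbp T1 and T3, low in T2 and close to the Rb1/Trp53 level in T4, and the call ended without any 1 of the Rb1/Trp53 tumours (adjusted p 0.0828 to 0.104). Astn1, Pcdh10, Grid1, Cntn1 and Cwc22 complete the 12.

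Cwc22, a splicing factor, rose alike in both sets of tumours. It stood at 32.1, 36.5 and 35.1 CPM in the Rb1/Trp53 and at 453, 602, 642 and 682 CPM in the Crebbp tumours (4.1 ± 0.17, adjusted p = 4.25e-05), and in the Pomc-high tumours, which share no library with these, its fold change was 4.4 ± 0.09, adjusted p = 8.59e-12. Some mouse strains carry several copies of this gene, so the reads may come from more than 1 locus. The unnamed model C530028O21Rik, which was singled out after its values had been seen, fell from 149, 145 and 215 to 5.32, 6.73, 5.89 and 4.52 CPM (-4.91 ± 0.19, adjusted p = 4.25e-05). RefSeq lists this symbol as a synonym of Pianp, a membrane protein of neurons. Its Pomc-high fold change was -0.07 (adjusted p = 0.721).

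Among the 12 largest falls were genes that fat, liver or glandular epithelium express strongly. The fat, lung and thyroid sums fell in the same tumours, and the part of such cells in these falls was not tested. Pck1 is given above. Car3, carbonic anhydrase III, abundant in fat and muscle, stood at 145, 93.2 and 10.1 CPM in the Rb1/Trp53 and at 2.61, 2.35, 0.136 and 0.691 CPM in the Crebbp tumours (-5.92 ± 1.11, adjusted p = 0.00925). Cyp2e1, a cytochrome P450 of liver and fat, was at 33.5, 44 and 4.09 and at 0.68, 0.196, 0.203 and 0.126 CPM (-6.66 ± 0.94, adjusted p = 0.00267). Both were lowest in Rb1/Trp53 T4 among the 3, as the fat cell sum was. Bpifa1, an airway secretory protein, was at 9.88, 58.6 and 62.2 and at 2.04, 1.7, 0.339 and 0.879 CPM (-5.19 ± 0.77, adjusted p = 0.00332). Unlike the lung sum (528, 503 and 309 CPM in Rb1/Trp53 T1, T3 and T4), Bpifa1 was lowest in T1 and highest in T4 among these tumours. Ltf, lactoferrin, was at 2.37, 33.7 and 10.5 and at 0.113, 0.327, 0.881 and 0.314 CPM (-5.16 ± 0.96, adjusted p = 0.00662). Psca, a surface protein of epithelia, was at 43.6, 14 and 19.9 and at 0.113, 0.0653, 0.0678 and 0.126 CPM (-8.03 ± 0.56, adjusted p = 0.000569), close to absent in all 4 Crebbp tumours. Rasal3, a Ras GTPase-activating protein, was at 26.3, 16.6 and 44.1 and at 0.793, 1.57, 2.64 and 2.95 CPM (-3.82 ± 0.45, adjusted p = 0.00164). Cxcl13, a chemokine for B cells, was at 21.3, 7.47 and 35.5 and at 0.793, 1.7, 0.813 and 3.2 CPM (-3.67 ± 0.64, adjusted p = 0.0052). Gdpd3, Serpina3j, Folr1 and Nkx2-2 are the others, with log2 fold changes of -3.45, -4.82, -3.38 and -4.0. Serpina3j has close paralogues in its cluster, so its reads may be shared, and its call ended without Crebbp T3 or T4 (adjusted p = 0.0546 and 0.0541).

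The genotype difference was compared with that in the 10 Pomc-high tumours (6 Rb1/Trp53, 4 Rb1/Trp53/Crebbp), in which 1179 of 14010 genes (8.42%) were called. Of 13632 genes tested in both sets, 447 were called in both, 321 in the same direction (141 higher, 180 lower) and 126 in opposite directions; the 321 were 6.45% of those called in the Calca-high and 28.5% of those called in the Pomc-high tumours. Across genes the fold changes of the sets had a Pearson r of 0.19, a description. The difference between the sets was tested itself, as an interaction in a fit of all 17 libraries: 3531 of 15432 genes (22.9%) passed, 1982 (12.8%) with a larger and 1549 (10%) with a smaller Crebbp over Rb1/Trp53 ratio in the Calca-high tumours. Levels in this comparison are scaled over all 17 libraries, so they differ slightly from those above.

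Among the 6 genes named for a larger ratio, Mdga2, an adhesion protein that regulates neuroligins, stood at 2.51, 1.55 and 1.91 CPM in the Calca-high Rb1/Trp53 and at 18.4, 18.6, 19.5 and 25.1 CPM in the Calca-high Crebbp tumours. The lowest, median and highest level in the 6 Pomc-high Rb1/Trp53 tumours were 21.4, 24.8 and 33.6 CPM, and the 4 Pomc-high Crebbp tumours stood at 22.5, 32.4, 24.7 and 27.6 CPM (interaction 3.34 ± 0.26, adjusted p = 2.23e-06). The Calca-high Rb1/Trp53 tumours were low, and the other 3 groups overlapped. Evc, a protein of the cilium base that acts in Hedgehog signalling, showed the same order, at 2.73–3.46 CPM in the Calca-high Rb1/Trp53 tumours, 16–30 in the Calca-high Crebbp tumours, and 21.4–30.4 and 22–31.2 in the Pomc-high genotypes (interaction 2.68 ± 0.27, adjusted p = 2.13e-05). Ildr2 rose in both sets, from 1.81–3.15 to 24.6–45 CPM and from 39.7–58.9 to 62.8–94.1 CPM (interaction 2.97 ± 0.29, adjusted p = 2.13e-05). Zfp92, a zinc finger protein, rose in the Calca-high tumours (1.96–2.99 to 5.62–6.53 CPM) and fell in the Pomc-high ones (90.2–124 to 49.8–63 CPM; interaction 2.23 ± 0.18, adjusted p = 2.47e-06). Ryr3, a calcium release channel, did the same, though its Pomc-high genotypes overlapped, with 0.227–0.365 and 2.62–4.27 CPM against 21.4–41 and 13.4–23.9 CPM (interaction 4.53 ± 0.41, adjusted p = 9.31e-06). Sh3rf3, a ubiquitin ligase, stood at 0.548–0.872 and 7.93–10.8 CPM and at 2.3–6.2 and 2–3.56 CPM (interaction 4.41 ± 0.44, adjusted p = 2.13e-05).

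Th, whose upstream window with the full cAMP element is printed above, moved in opposite directions in the sets. It stood at 38.2, 19.3 and 10.9 CPM in the Calca-high Rb1/Trp53 and at 5.71, 1.9, 4.16 and 2.61 CPM in the Calca-high Crebbp tumours. In the Pomc-high Rb1/Trp53 tumours the lowest, median and highest level were 0.383, 0.624 and 1.38 CPM, and the Pomc-high Crebbp tumours stood at 1.37, 4.14, 2.97 and 3.96 CPM (interaction -4.84 ± 0.62, adjusted p = 0.00017). The Pomc-high genotypes touched at 1.37 and 1.38 CPM. Each set alone passed its own test, the Calca-high one at -2.68 and the Pomc-high one at 2.17 ± 0.38, adjusted p = 0.00485. Smo, the signal transducer of the Hedgehog pathway, did likewise, with 4.67–12.7 and 2.3–3.08 CPM in the Calca-high and 4.34–8.19 and 14.1–15.4 CPM in the Pomc-high genotypes (interaction -2.88 ± 0.38, adjusted p = 0.000198). Hadh, an enzyme of fatty acid oxidation, fell from 124–168 to 43.1–58.5 CPM in the Calca-high tumours and was at 19.2–25.3 and 25.3–29.5 CPM in the Pomc-high genotypes (interaction -1.83 ± 0.16, adjusted p = 5.26e-06). Ripply3, a transcriptional corepressor of pharyngeal development, was at 58.6–74.4 and 12.7–17.4 CPM against 2.93–5.21 and 3.88–5.92 CPM (interaction -2.39 ± 0.23, adjusted p = 1.94e-05). Setdb2, a histone methyltransferase, was at 54.6–80.7 and 14.2–20.7 CPM against 4.18–6.8 and 4.33–6.07 CPM (interaction -1.92 ± 0.24, adjusted p = 0.000158). Dnajc12, a cochaperone of the aromatic amino acid hydroxylases, was at 56–70.2 and 28.6–30.1 CPM against 14.2–21.3 and 20.8–25.6 CPM (interaction -1.41 ± 0.16, adjusted p = 6.55e-05). In these 4 genes the Calca-high genotypes did not overlap, as in most called genes. The Calca-high Crebbp levels lay between the Calca-high Rb1/Trp53 and the Pomc-high levels. The choice of genes by the smallest interaction p favours a fall of this kind, so this is a description.

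**Figure D5:**
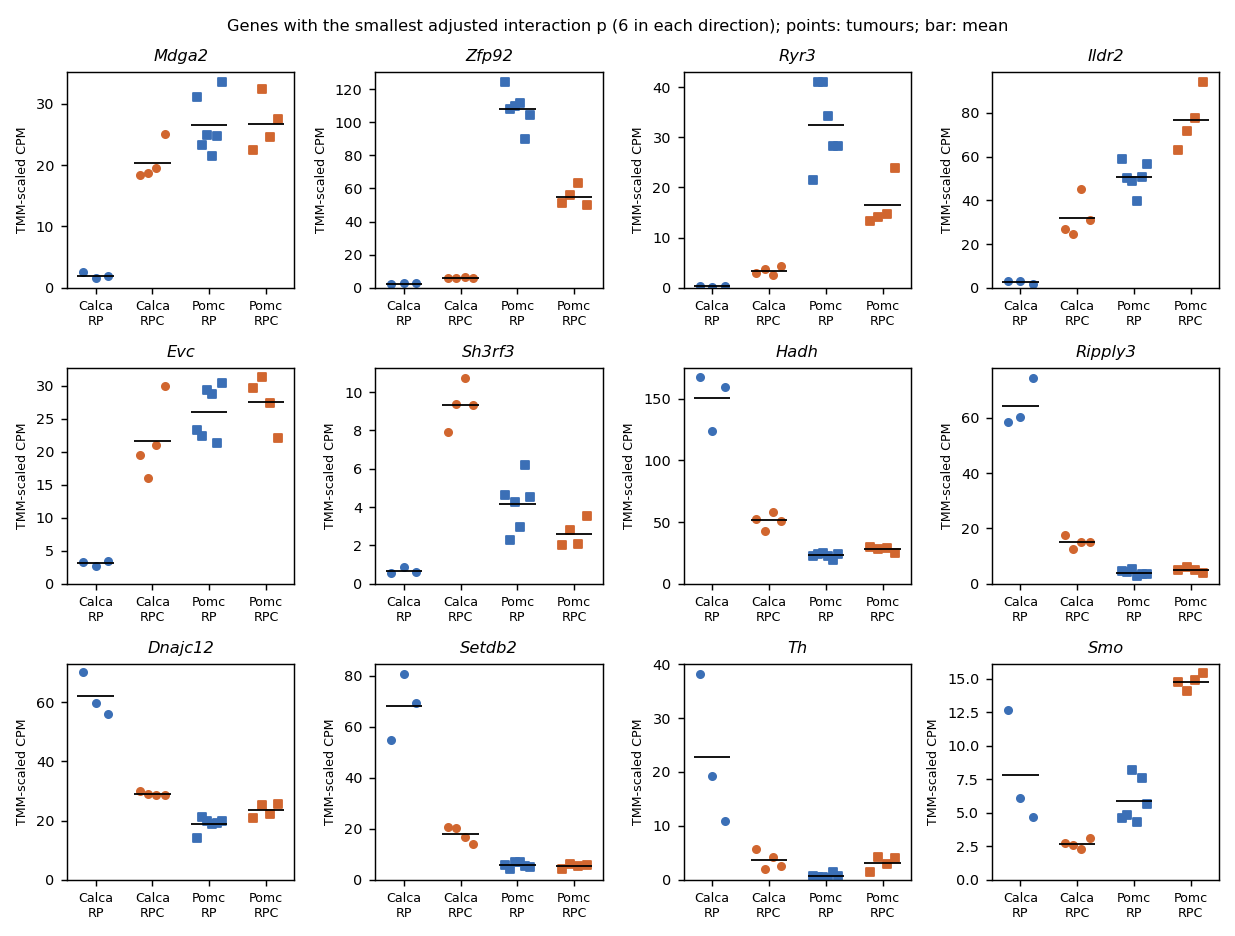
Level of the 12 genes with the smallest adjusted interaction p, 6 in each direction, in TMM-scaled CPM from 0, for each tumour of the 4 groups (Calca-high RP, n = 3, and RPC, n = 4, circles; Pomc-high RP, n = 6, and RPC, n = 4, squares; bars are means). Zfp92 and Ryr3 fall and Th and Smo rise from RP to RPC in the Pomc-high tumours, against the direction in the Calca-high tumours.

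For the gene lists, the interaction counts were read against the same 12.8% and 10%. In the cadherin and protocadherin list 12 of 31 members had a larger ratio in the Calca-high tumours, in the chromatin enzyme list 12 of 36, in the hypoxia and glycolysis list 12 of 34, and in the mitotic list 11 of 36. The axon guidance list had 15 of 41 with a larger and 4 with a smaller ratio; in the Pomc-high tumours 5 of its members were higher and 10 lower by their own test. Of the sodium and calcium channels 10 of 31 had a larger and 3 a smaller ratio. A smaller ratio was found for 22 of 48 ribosomal protein, 15 of 42 oxidative phosphorylation, 12 of 33 detoxification and 11 of 42 granule genes. In the neuronal adhesion list 9 of 38 had a larger and 1 a smaller ratio, with a median fold change of 0.74 in the Calca-high and 0.97 in the Pomc-high tumours. In the neuronal differentiation list these counts were 5 and 1 of 29, with medians of 0.63 and 0.67. Mitosis had medians of 0.74 and 0.14. With the length offset 2039 genes passed the interaction test in place of 3531.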

How the data were processed

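RNA-seq libraries of 17 tumours were used, 1 table of raw read counts each. TRIzol extraction, oligo-dT selection and a NEBNext Ultra kit were used, per the labels' protocols. The submitters' processing notes name mm9, HTSeq 0.6.1, TopHat2 2.0.12 and bcl2fastq 1.8.2. For the gene annotation and the strand setting, the sources used here give nothing, and overlapping and antisense genes cannot be told apart. The authors deposited counts for 23284 gene symbols and 5 summary rows, which entered neither library sizes nor tests; genes held 64.5% to 69.9% of each Calca-high table. Among the Calca-high libraries no pair of the same genotype agreed within sampling noise, and other pairs were not examined.

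Groups came from the titles, and the Calca-high set from the Calca and Pomc counts. The set, the gene lists and the tests were chosen with earlier results of these data known. Counts of the 7 libraries were tested with edgeR 4.0.16 (TMM, filterByExpr by genotype, robust quasi-likelihood test, Benjamini-Hochberg adjustment, threshold 0.05), and the difference between the sets as an interaction over all 17 libraries. The standard error is the log2 fold change divided by the root of F. Named genes were the engineered genes and markers, the 12 largest changes in each direction among called genes that averaged 5 CPM or more with no overlap of the genotypes (leaving out unnamed models, haemoglobins, sex-linked genes and markers of other cells), up to 4 called members of each list with the smallest p, and 6 interaction genes in each direction; other genes are said to be chosen after their values were seen. Lists held 1347 entries, of which 1342 matched a symbol, 17 of them by a RefSeq synonym. Exon lengths come from a GRCm38 annotation and upstream windows from RefSeq GRCm38.p6, not the files' build; their coordinates were not joined to the counts. On simulated counts of 14797 genes, 200 of them changed, the Calca-high comparison recovered 60.2% of 88 2-fold and 82.1% of 112 4-fold changes. It made 13 false calls. For the interaction, with 15432 genes and 200 changed, 48.6% of 107 and 80.6% of 93 were recovered, with 8 false calls. Far more genes, 5355, were called in the data of the Calca-high comparison, so recovery there may differ. Alternatives were other normalizations and filters, DESeq2 1.42.0, limma-voom (limma 3.58.1), covariates, length offsets, thinning and leaving out tumours.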

Additional observations from a re-analysis of the deposited data

Results flagged for a closer look

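In 6 of 78 groups of 4 to 6 tumours whose level of a named gene or marker list was examined, 1 tumour lay far from the rest of its group; chance flags about 1 group in 20, so a few such cases are to be expected of it. Rb1 stood at 104 CPM in Crebbp T1 against 73.7 to 77.5 CPM in Crebbp T2 to T4. Cyp2e1 was at 0.68 CPM in Crebbp T1, and Mdga2 at 26.6 CPM in Crebbp T4. In the Pomc-high tumours Ryr3 was at 23.9 CPM in Crebbp T8, Dnajc12 at 14.2 CPM in Rb1/Trp53 T2 and Th at 1.38 CPM in Rb1/Trp53 T8.

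The genotype effect differed between the Calca-high and Pomc-high tumours for 3531 genes by the interaction test (edgeR, adjusted p under 0.05; 5732 at an unadjusted p under 0.05). The 12 named ones had interaction log2 values of 3.34 (Mdga2), 2.23 (Zfp92), 4.53 (Ryr3), 2.97 (Ildr2), 2.68 (Evc), 4.41 (Sh3rf3), -1.83 (Hadh), -2.39 (Ripply3), -1.41 (Dnajc12), -1.92 (Setdb2), -4.84 (Th) and -2.88 (Smo).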

How the results depend on the processing

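The count of 5355 genes that differed between the genotypes lay between 4431 and 6061 with other normalizations, filters and tests, the genomic span offset, thinning and the fit of all 17 libraries, and between 3588 and 5312 when 1 tumour was left out. It was 3569 with the exon length offset (2704 of them among the 5355), 2577 with Rb1/Trp53 T4 as the only Rb1/Trp53 tumour, 1402 with the thyroid covariate, 744 with the endothelial, macrophage and fibroblast covariate and 408 with the Xist term; the cause was not tested. The interaction count of 3531 lay between 3104 and 4142 with other normalizations, filters and tests, between 2487 and 3849 when 1 tumour was left out, and was 2039 with the exon length offset. The tumour numbers are shared by both genotypes. To look for pairing, the deviations of each tumour from its genotype's mean were correlated over tested genes. Same-numbered tumours had correlations of these deviations of 0.145 (T1), 0.0706 (T3) and -0.159 (T4), and differently numbered ones of -0.314 to 0.256. Not every tumour correlated best with its own number. With so few tumours these values cannot decide whether the numbers pair samples. A replicate block gave 2700 genes in place of 5355. Of 191 named genes that were called, 173 kept the call whichever tumour was left out. The other 18 included Acta2, Aif1, Aqp4, C1qa, C1qb, Cdh2, Crhr1, Ei24, Hoxd3, Napsa, Npy, Nr4a1, Prrx1, Serpina3j, Tagln, Tgfbr1 and Xist. Calls ended for 130 with the Xist term, 110 and 106 with the 2 covariates, 56 with Rb1/Trp53 T4 alone and 32 with the exon length offset. Signs turned for Napsa (0.13), Dll3 (0.0307) and Cdh2 (-0.00874) with the thyroid covariate, for Crebbp (-0.0516) and Scn8a (-0.0944) with the exon length offset, and for Rb1 (-0.0397) and Cacna1d (-0.0831) with the genomic span offset. Of 43 lists with at least 5 tested members, all kept the sign of their median under other normalizations, filters and tests. With the exon length offset 38 did, with the Xist term 41 and with Rb1/Trp53 T4 alone 37. The fewest, 35, kept it with the thyroid covariate and with the endothelial, macrophage and fibroblast covariate. Without 1 tumour, 43 of 94 list counts by direction moved by over 1.5 times, 33 of them counts under 8. The shallower Crebbp libraries limit what can be said of genes with few reads.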
